A study of Homo sapiens with 6 samples.

Results

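Nodal signalling is the branch of the TGFβ family that induces mesoderm and endoderm in the primitive streak of the embryo, and it helps to keep human embryonic stem cells pluripotent. Nodal acts through activin receptors together with a co-receptor, CRIPTO. The receptors phosphorylate SMAD2 and SMAD3, which act on DNA with partners such as FOXH1. LEFTY1, LEFTY2, CER1 and SMAD7 limit the pathway. β-catenin carries the Wnt signal to target genes, and its binding was examined at 9 genes of this pathway: NODAL, TDGF1 (the older symbol of CRIPTO), FOXH1, SMAD2, SMAD3, LEFTY1, LEFTY2, CER1 and SMAD7. Every peak that the authors assigned to one of these genes was taken, at any distance from the transcription start site (TSS). This gave 7 of the 3126 peaks deposited, at 4 of the 9 genes.

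The peaks came from chromatin immunoprecipitation and sequencing (ChIP-seq) against β-catenin in cells of SA121, a single human embryonic stem cell line. Cells spent 6 h in RPMI with CHIR99021 and SB431542 (CHIR+SB), in RPMI with CHIR99021 (CHIR), or in RPMI with neither inhibitor (RPMI). CHIR99021 inhibits the kinase GSK3 and so stabilises β-catenin, and SB431542 blocks the type I receptors of activin, Nodal and TGFβ. Each condition had 1 β-catenin library and 1 goat IgG library, with no replicate, and the DNA of 3 parallel ChIPs was pooled for a library. Inhibitor doses are left out, since their unit is in doubt.

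The peak lists held 1813 peaks in CHIR+SB, 1053 in CHIR and 260 in RPMI. The fewest β-catenin reads in a listed peak were 12 in CHIR+SB, 20 in CHIR and 15 in RPMI. The normalized signal, which is the read count times 1 factor per library, was at least 6.75, 7.68 and 9.61 in those lists. The inverse of the β-catenin factor, relative to RPMI, was 1.14 in CHIR+SB and 1.67 in CHIR, and that of the IgG factor was 1.75 and 0.976. These are relative depths only if the factors bring the libraries to a common depth, and the basis of the factors is not stated, so signals compared between conditions rest on the authors' scaling. Intervals below are 95% intervals for counting error only, and sequencing reads are not independent molecules, so true errors are larger. They do not cover the spread between cultures, which was not measured.

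The ligand gene, the co-receptor gene and the gene for the DNA-binding partner of the SMADs had a peak in both conditions with CHIR. NODAL, TDGF1 and FOXH1 had 1 peak each in CHIR+SB and 1 each in CHIR, and no peak in RPMI. SMAD2 had 1 peak, in CHIR+SB alone. The pathway's inhibitor genes LEFTY1, LEFTY2, CER1 and SMAD7 and the effector gene SMAD3 had no peak in any of the 3 lists. The members with a peak thus numbered 4 of 9 in CHIR+SB, 3 of 9 in CHIR and 0 of 9 in RPMI. Among 20056 protein-coding genes, 6.25% had a peak in CHIR+SB, 3.8% in CHIR and 1.14% in RPMI. The members were chosen with earlier results of these data known, so their counts are a description. With 9 genes and a share of 1.14% among all genes, a count of 0 in RPMI does not set the members apart.

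**Figure D1:**
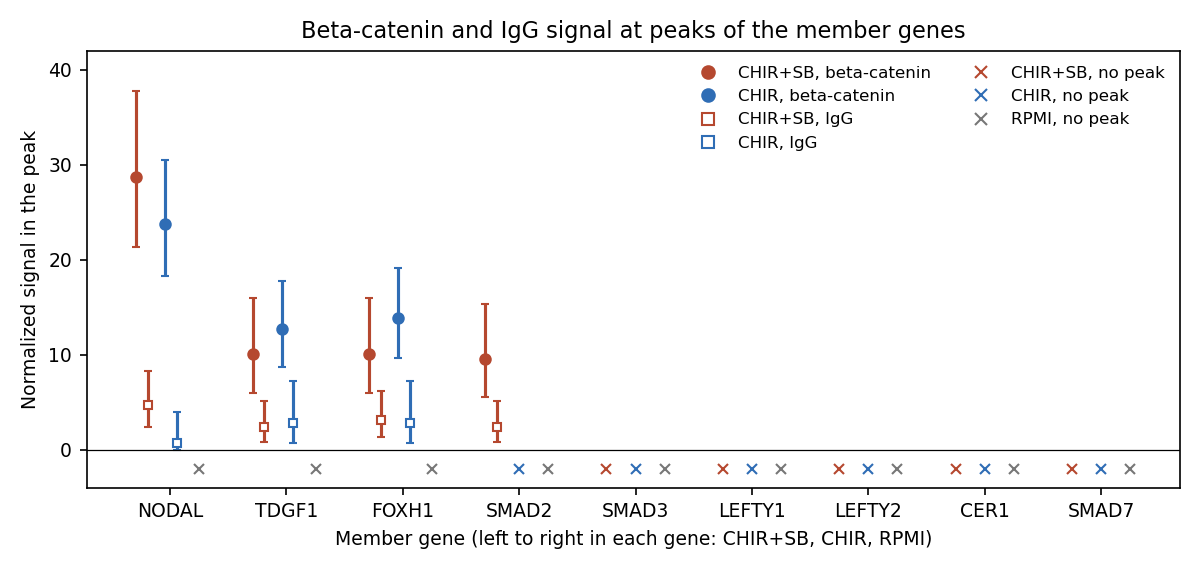
Normalized signal (y axis) at the peaks of the 9 member genes (x axis), with CHIR+SB, CHIR and RPMI from left to right within each gene. Filled circles are β-catenin, open squares are IgG in the same peak, bars are 95% Poisson intervals of the counts, and crosses below 0 mark a condition with no listed peak, not a signal of 0. NODAL had the highest signal in both CHIR+SB (28.7) and CHIR (23.8), and SMAD3, LEFTY1, LEFTY2, CER1 and SMAD7 had crosses in all 3 conditions.

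NODAL encodes the ligand. In CHIR+SB its peak lay on chromosome 10 from 72214884 to 72215776 (hg19) and held 51 β-catenin reads (38.0 to 67.1) and 12 IgG reads (6.20 to 21.0). In CHIR the peak lay from 72214914 to 72215541 and held 62 β-catenin reads (47.5 to 79.5) and 1 IgG read (0.0253 to 5.57). The CHIR peak was contained whole in the wider CHIR+SB peak. The peak centres were 13.9 kb upstream of the NODAL TSS in CHIR+SB and 13.8 kb upstream in CHIR, counted from the start of NM_018055. On the reference gene order PALD1 is the next protein-coding gene on that side and EIF4EBP2 on the other, and the assignment of the peak to NODAL is that of the authors. The NODAL gene spans 9774 bp in the peak lists and 16016 bp in the current RefSeq table, so a distance to the TSS depends on the gene model used.

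The NODAL peak was the highest of the member peaks in both lists. It ranked 50 of 1813 in CHIR+SB, with a normalized signal of 28.7, and 94 of 1053 in CHIR, with 23.8. The CHIR+SB to CHIR ratio of the signals was 1.21 (0.815 to 1.77), an interval that includes 1. The peak was 892 bp wide in CHIR+SB and 627 bp in CHIR, and the ratio per kb of peak was 0.847 (0.573 to 1.25). The direction of the ratio therefore turned with the width counted, and neither interval excluded 1.

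The NODAL peaks lay toward opposite ends of their lists in IgG count, high in CHIR+SB and low in CHIR. These are counts per peak, not per kb, and the NODAL peaks were wide. In CHIR+SB 99.3% of peaks were no wider, and in CHIR 89.1%. The median IgG count per peak was 6 in CHIR+SB and 4 in CHIR. IgG signal in the peak was 4.72 in CHIR+SB and 0.706 in CHIR, a ratio of 6.70 (0.991 to 286). β-catenin signal over IgG signal was 6.07 (3.19 to 12.5) in CHIR+SB and 33.7 (5.84 to 1354) in CHIR, and the quotient of these was 0.180 with an interval of 0.0041 to 1.31. The value in CHIR rests on 1 IgG read, and 10.6% of CHIR peaks (112 of 1053) had at most 1. The peak in CHIR+SB held 12 IgG reads, and 91.2% of CHIR+SB peaks had 12 or fewer. The quotient thus rests on both IgG counts. The median β-catenin over IgG signal of all peaks was 4.29 in CHIR+SB and 4.66 in CHIR, so NODAL lay above the median in both lists.

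TDGF1 encodes CRIPTO, the membrane-anchored co-receptor that Nodal needs to engage its receptors. It was the 1 member with a peak over its own TSS, and that peak was in CHIR. The 250 bases before the start of the gene are shown because the CHIR peak reached from 232 bp before the TSS of the lists to 185 bp after it. They are from RefSeq (GRCh38.p14, chr3:46574285-46574534, plus strand, 5′ to 3′), with the short core of the TCF/LEF motif (CTTTG) in capitals. TCF/LEF proteins are the DNA-binding partners of β-catenin.
CRIPTO (TDGF1) upstream window: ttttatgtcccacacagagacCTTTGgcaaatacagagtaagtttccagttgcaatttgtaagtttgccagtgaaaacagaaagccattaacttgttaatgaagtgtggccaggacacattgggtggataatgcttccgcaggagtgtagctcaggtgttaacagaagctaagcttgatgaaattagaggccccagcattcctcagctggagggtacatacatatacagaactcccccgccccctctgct

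The window held 1 match to CTTTG on either strand, 229 bases before the start, and 42.1% of 35116 RefSeq upstream windows of the same length held at least 1. It held no match to the longer TCF/LEF core CTTTGAT (2.26% of windows), to the SMAD core CAGAC (38.0%) or to the FOXH1 core ATCCACA (2.27%). CTTTG lies within CTTTGAT, so matches to the longer core are also matches to the shorter one. These letters describe the window and do not show binding. The TDGF1 gene spans 7908 bp in the lists and 7923 bp in the reference, so whether the match at 229 bases lies inside the CHIR peak, whose edge is at 232 bp, could not be settled. RefSeq gives this gene 2 start sites, and the window belongs to the upstream one.

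The TDGF1 peaks barely met. In CHIR+SB the peak lay on chromosome 3 from 46616191 to 46616499, within the gene from 147 to 455 bp after the TSS, with 18 β-catenin reads (10.7 to 28.4) and 6 IgG reads (2.20 to 13.1). In CHIR it lay from 46615812 to 46616229, across the TSS, with 33 β-catenin reads (22.7 to 46.3) and 4 IgG reads (1.09 to 10.2). The peaks shared 38 bp, 9.11% of the CHIR peak, where the median over 642 pairs of CHIR+SB and CHIR peaks that overlap one-to-one was 88.1%. Their centres were 325 bp apart, against a median of 49 bp, and only 2 of the 642 pairs, TDGF1 included, were at least as far apart. The lists give no read positions inside a peak, so where the summit lay in each library is unknown.

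Signal at TDGF1 was near the middle of both lists. It was 10.1 in CHIR+SB (rank 777 of 1813) and 12.7 in CHIR (rank 455 of 1053), a ratio of 0.799 (0.424 to 1.46). Per kb of peak the ratio was 1.08 (0.574 to 1.98). Signal over IgG signal was 4.29 (1.63 to 13.2) in CHIR+SB and 4.49 (1.60 to 17.4) in CHIR. None of these ratios between conditions had an interval that excluded 1, and because the peaks barely overlap they compare neighbouring stretches of sequence rather than one site.

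FOXH1 encodes the forkhead protein that brings SMAD2 and SMAD3 to DNA. In CHIR+SB its peak lay on chromosome 8 from 145709698 to 145709910 with 18 β-catenin reads (10.7 to 28.4) and 8 IgG reads (3.45 to 15.8). In CHIR it lay from 145709706 to 145710168 with 36 β-catenin reads (25.2 to 49.8) and 4 IgG reads (1.09 to 10.2). The centres were 8.09 kb upstream of the FOXH1 TSS in CHIR+SB and 8.22 kb upstream in CHIR. PPP1R16A is the next protein-coding gene on the upstream side of FOXH1. Only gene order was used, so whether the peak lies inside PPP1R16A was not determined. The assignment of the peak to FOXH1 is that of the authors. The CHIR+SB peak lay almost whole inside the TSS-facing end of the CHIR peak, sharing 204 bp, which is 96.2% of the CHIR+SB peak and 44.2% of the CHIR peak.

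FOXH1 signal was 10.1 in CHIR+SB (rank 777 of 1813) and 13.8 in CHIR (rank 387 of 1053), a ratio of 0.732 (0.392 to 1.32). The CHIR+SB peak was 212 bp wide and the CHIR peak 462 bp, and per kb of peak the ratio was 1.60 (0.853 to 2.89). The FOXH1 ratio was thus below 1 for the whole peak and above 1 for the density, with 1 inside both intervals. Signal over IgG signal was 3.21 (1.33 to 8.54) in CHIR+SB, where 16.2% of peaks had this value or less, and 4.90 (1.76 to 18.9) in CHIR, above the median of that list.

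**Figure D2:**
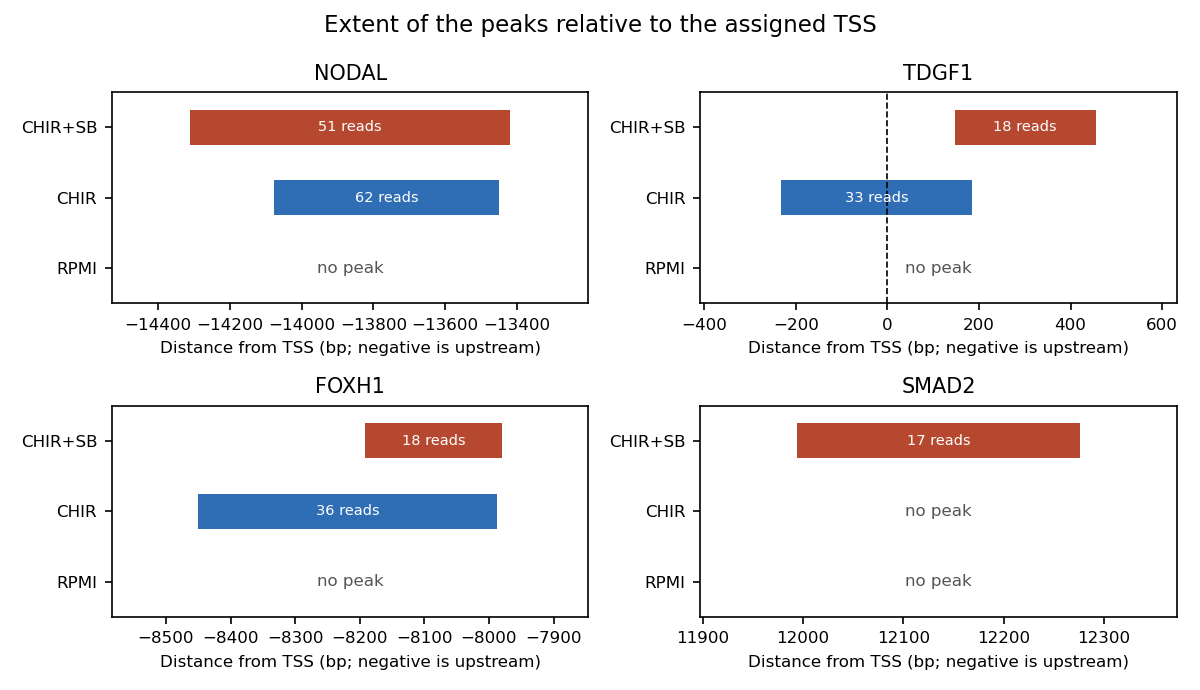
Extent of each member peak as distance from the assigned TSS in bp (x axis, negative values upstream, each panel on its own scale), with CHIR+SB at the top, then CHIR, then RPMI. Each bar is 1 peak with its β-catenin reads, and the dashed line in the TDGF1 panel is the TSS. The NODAL bars nearly coincide at the TSS-facing end, the TDGF1 bars share 38 bp, and the FOXH1 bar of CHIR+SB covers less than that of CHIR.

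SMAD2 encodes one of the receptor-activated SMADs. Its CHIR+SB peak lay on chromosome 18 from 45444694 to 45444976, within the gene 12.1 kb from the TSS, and whether this is exon or intron was not annotated here. It held 17 β-catenin reads (9.90 to 27.2) and 6 IgG reads (2.20 to 13.1). Its signal of 9.56 equalled the median of the CHIR+SB list, and signal over IgG signal was 4.05 (1.52 to 12.5), just under the list's median. At equal normalized signal the peak would have 24.9 reads in CHIR, where the lowest peak had 20, and 14.9 reads in RPMI, where the lowest had 15. Such a peak would thus fall just under the lowest RPMI peak, and above the lowest CHIR peak by its read count.

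The lower limit of the RPMI list bears on the other members too. At equal normalized signal the CHIR peak of NODAL would have 37.2 reads in RPMI, that of FOXH1 21.6 and that of TDGF1 19.8, each above the 15 reads of the lowest RPMI peak. The CHIR+SB peaks would have 44.8 reads in RPMI at NODAL and 15.8 at both TDGF1 and FOXH1, which is close to that limit. NODAL signal in CHIR was 2.48 times the lowest signal of the RPMI list, FOXH1 signal 1.44 times and TDGF1 signal 1.32 times. In CHIR+SB it was 2.98 times at NODAL and 1.05 times at FOXH1 and TDGF1. The 15 reads are the lowest count among listed RPMI peaks. The caller's thresholds are not stated, so a site with more reads could still go unlisted. No read count at these sites in RPMI was used here. Across the lists, 17% of CHIR peaks (179 of 1053) and 8.77% of CHIR+SB peaks (159 of 1813) overlapped an RPMI peak.

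All 3 member peaks in CHIR overlapped a CHIR+SB peak of the same gene, where 63.3% of all CHIR peaks overlapped a CHIR+SB peak. In the other direction 3 of 4 member peaks in CHIR+SB overlapped a CHIR peak, where 36.6% of all CHIR+SB peaks did. With overlap of at least 50% of both peaks required, NODAL was the 1 member that remained, against 46.6% of CHIR peaks and 27.1% of CHIR+SB peaks. By signal, 0 of the 3 member pairs passed 1.5-fold in either direction, where 20.6% of the 642 pairs did (11.7% higher and 8.88% lower). By signal over IgG signal, 2 of the 3 pairs, NODAL (0.180) and FOXH1 (0.656), passed 1.5-fold downward, where 29.7% of 630 pairs with IgG reads in both lists did, and none passed it upward, where 12.5% did. The median of this measure over those pairs was 0.877. For the ratio of signals, an interval that excluded 1 was found at 0 of the 3 member pairs and at 10.9% of all pairs. By signal per kb FOXH1 passed 1.5-fold upward, where 8.88% of pairs did, and no member passed it downward, where 8.1% did.

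**Figure D3:**
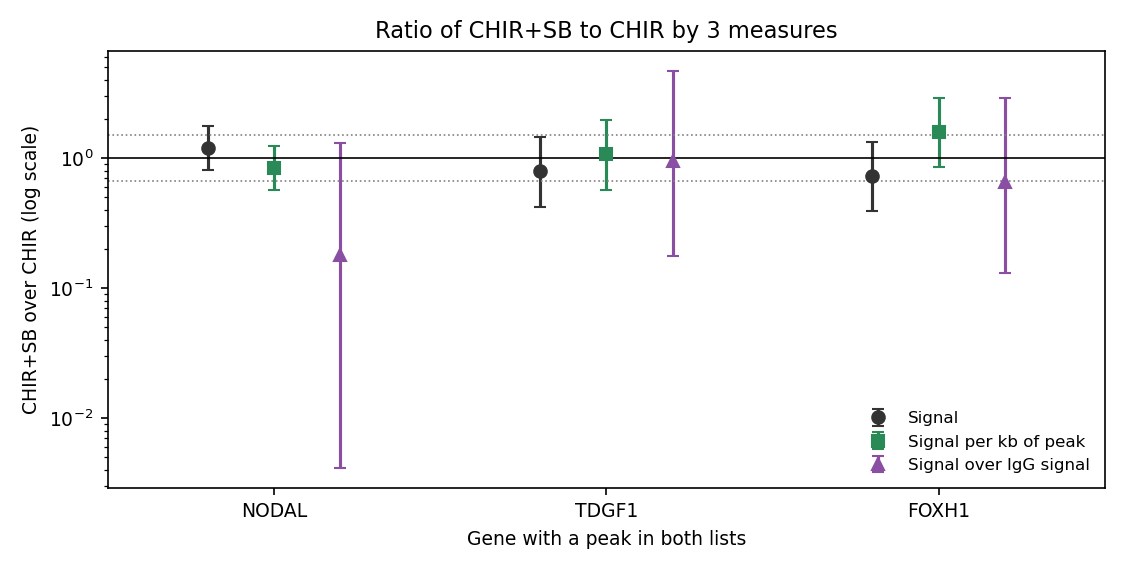
Ratio of CHIR+SB to CHIR (y axis, log scale) at NODAL, TDGF1 and FOXH1 (x axis) by signal (circles), by signal per kb of peak width (squares) and by signal over IgG signal (triangles). Bars are exact 95% intervals for counting error, the solid line is 1 and the dotted lines are 1.5-fold in each direction. All 9 intervals include 1, and the point for FOXH1 lies below 1 by signal (0.732) and above 1 by signal per kb (1.60).

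The member peaks stood apart from each other in height. NODAL was among the top 10% of peaks in both lists, with 97.3% of CHIR+SB peaks and 91.2% of CHIR peaks at or below its signal. TDGF1, FOXH1 and SMAD2 had between 51.8% and 63.3% of the peaks of their list at or below theirs. The authors' deposited −log10 p-values headed "distr." for the β-catenin count followed the same order. They were 51.7 at NODAL, 11.3 at TDGF1, 11.3 at FOXH1 and 10.3 at SMAD2 in CHIR+SB. In CHIR they were 49.9 at NODAL, 21.6 at FOXH1 and 18.8 at TDGF1. They rest on the same counts as the signal, so this order is no separate evidence. The authors' values headed "local" did not follow it. In CHIR+SB these were 6.47 at FOXH1, 4.20 at NODAL, 4.02 at SMAD2 and 3.50 at TDGF1. In CHIR they were 4.97 at TDGF1, 4.38 at FOXH1 and 4.02 at NODAL. The nearest peak of any list that did not overlap lay 886 kb from the CHIR peak of NODAL, 798 kb from that of FOXH1 and 225 kb from that of TDGF1, where the median over all CHIR peaks was 256 kb and the upper quartile 720 kb. For the SMAD2 peak it lay 1496 kb away, a gap that 90.7% of CHIR+SB peaks did not exceed.

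**Figure D4:**
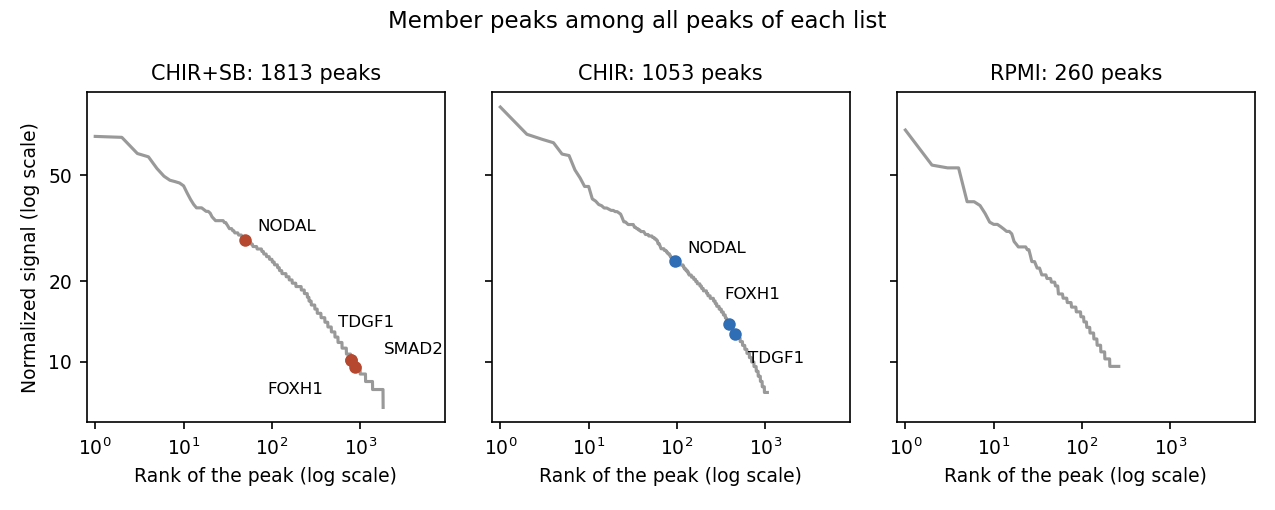
Normalized signal (y axis, log scale) of every peak against its rank (x axis, log scale) in CHIR+SB, CHIR and RPMI, with the member peaks as labelled points. NODAL lies high on both curves, at rank 50 in CHIR+SB and 94 in CHIR, TDGF1 and FOXH1 share rank 777 in CHIR+SB as 1 point, and the RPMI curve has no member.

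Of all 1840 genes with a peak, those with the pattern most like that of NODAL were MSX1, COL2A1 and HOXD1, by Euclidean distance of log2(summed signal + 1) over the 3 lists. MSX1 had a summed signal of 28.1 in CHIR+SB and 23.0 in CHIR, COL2A1 27.6 and 24.6, and HOXD1 31.5 and 23.8. None had a peak in RPMI, which follows from the distance rule, since NODAL had none there. MSX1 matched NODAL with 1 peak in each list, while COL2A1 had 2 peaks in CHIR+SB and 1 in CHIR, and HOXD1 had 3 and 2. The distances were 0.0531, 0.0710 and 0.131, and 3 points from single libraries make this a description.

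The members without a peak were looked at through their neighbours in the RefSeq gene order, since a peak goes to 1 assigned gene. LEFTY1 and LEFTY2 encode secreted antagonists of Nodal and lie close together on chromosome 1. Outward from LEFTY2 the first gene with a peak was MIXL1, a homeobox gene of mesendoderm, with 3 protein-coding genes between. On the other side of LEFTY1 it was CNIH3, with 6 between. MIXL1 had 2 peaks, in CHIR and CHIR+SB, and CNIH3 had 1, in CHIR+SB. CER1, on chromosome 9, encodes a secreted antagonist of Nodal and BMP. The first genes with a peak beside it were PTPRD and BNC2, each with 5 protein-coding genes between. Counting genes of every kind, 41 lay between CER1 and PTPRD and 27 between CER1 and BNC2. PTPRD had 2 peaks, in CHIR+SB and RPMI, and BNC2 had 2, in CHIR+SB.

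SMAD7 encodes an inhibitory SMAD. DYM, the next protein-coding gene, had 1 peak in CHIR+SB with 14 β-catenin reads and 6 IgG reads, 45.9 kb from the DYM TSS. On the other side of SMAD7 the first gene with a peak was SMAD2, itself a member, with 2 protein-coding genes between. SMAD3, the partner of SMAD2, lies beside SMAD6, which had no peak. The nearest genes with a peak were IQCH, with 1 protein-coding gene between, and RPL4, with 3 between, each with 1 peak in CHIR+SB. The IQCH peak had 15 β-catenin reads and 5 IgG reads. LEFTY1 and LEFTY2 are near-identical copies, and how reads that align to more than 1 place were treated is not given in the sources used here, so the lack of a peak at this pair is uncertain.

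Beyond the members, 33 other genes of the activin, Nodal and TGFβ pathway were looked up. They were ligands, receptors, co-receptors, SMADs, SMAD co-repressors, inhibitors and ligand-processing enzymes. In CHIR+SB 1 of 33 (3.03%) had a peak, against 6.25% of protein-coding genes, and 0 of 33 had one in CHIR or in RPMI. These shares did not lie above that of all genes. The 1 gene was ACVR1C, which encodes the type I receptor ALK7, one of the receptors that SB431542 inhibits. Its peak lay on chromosome 2 from 158485173 to 158485286, within the gene 170 bp from the TSS, with 14 β-catenin reads (7.65 to 23.5) and 6 IgG reads. Its signal of 7.88 ranked 1375 of 1813, and signal over IgG signal was 3.33 (1.20 to 10.6). No peak was assigned to the other receptor genes on the list, among them ACVR1B, ACVR2A, ACVR2B, TGFBR1 and TGFBR2, to SMAD4, the shared partner of the receptor-activated SMADs, or to the co-repressor genes SKI, SKIL, TGIF1 and TGIF2.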

How the data were processed

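ChIP-seq peak lists from 3 β-catenin libraries were used, with the 3 IgG libraries entering through the counts beside each peak. Per the labels' protocols, cells were fixed for 15 min in 1% formaldehyde, and 10 ng of DNA pooled from 3 parallel ChIPs made each library. The aligner was Bowtie, per the submitters' processing notes, which name hg19 and mm9 as builds. For the peak caller, its thresholds, the basis of the normalization factors and the aligner version, a statement was not given in the sources used here. Per the file headers, each deposited peak has whole read counts in the β-catenin and IgG libraries, normalized signal, −log10 p-values, the assigned gene and the distance of the peak centre to its TSS. The hg19 build was taken from the notes and the human gene positions. Coordinates are as deposited, and width is end minus start.

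Computed here were ranks, exact Poisson intervals of counts, ratios with exact conditional binomial intervals, and quotients of enrichment over IgG with exact conditional intervals (Python 3.11.15, pandas 2.3.3, scipy 1.17.1). Pairs are peaks of 2 lists that share at least 1 bp one-to-one. Called means past 1.5-fold. No p-value was computed, because each condition had 1 library. The code for ratio intervals and for overlaps was tested on simulated data, and that for Poisson and quotient intervals was not. Gene names were matched to RefSeq (GRCh38.p14, for names, order and the upstream window only), 99.3% in CHIR+SB, 99.1% in CHIR and 100% in RPMI. All 9 members are described, and pathway genes are named where they have a peak. The 3 genes most like NODAL follow a stated distance rule, and the pathway genes named without a peak are examples from the fixed list. Members, lists and motifs were chosen with earlier results of these data known.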

Additional observations from a re-analysis of the deposited data

How the results depend on the processing

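The number of members with a peak, and of member peaks, was the same within 50 kb of the TSS as at any distance. Within 10 kb it was 2 in CHIR+SB, against 4 at any distance, and 2 in CHIR, against 3, because NODAL and SMAD2 lie farther out. With the common minimum signal of 9.61 it was 3 in both conditions, since SMAD2 had 9.56. Restricted to the top 260 peaks per list, the number was 1 in CHIR+SB and 1 in CHIR, NODAL in each case. The pathway list had 0 genes with a peak in CHIR+SB under both of these signal limits, against 1. RPMI had 0 under every setting. The CHIR+SB to CHIR ratios by signal, by signal per kb and by signal over IgG signal were 1.21, 0.847 and 0.180 at NODAL. They were 0.799, 1.08 and 0.955 at TDGF1, and 0.732, 1.60 and 0.656 at FOXH1. The medians over these 3 genes, 0.799, 1.08 and 0.656, hide that the genes moved differently. NODAL passed 1.5-fold only by signal over IgG signal, and FOXH1 passed it upward per kb and downward over IgG. With 50% reciprocal overlap NODAL alone remained, at 1.21, and summing overlapping peaks changed no value. Median signal over IgG signal of the 7 member peaks was 4.49 with the authors' factors and 4.25 from raw reads. This pooled median hides a dependence on the factors within each condition. In CHIR+SB the values ran from 3.21 to 6.07 with the factors and from 2.25 to 4.25 raw. In CHIR they ran from 4.49 to 33.7 with the factors and from 8.25 to 62 raw. The raw interval of FOXH1 in CHIR+SB (0.931 to 5.98) included 1. No CHIR over RPMI ratio could be computed, because no member peak had an RPMI partner. With 12 to 20 reads in the lowest peaks, a member without a peak may still hold signal below the lists' limits, and no setting stands in for the missing replicates.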
